A study of Saccharomyces cerevisiae and Saccharomyces cerevisiae x Saccharomyces paradoxus and Saccharomyces cerevisiae x Saccharomyces mikatae with 18 samples.

Results

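Transcript levels of S. paradoxus homozygotes were set against those of S. cerevisiae homozygotes in 4 of the 18 libraries of the study: 2 of S. paradoxus, and 2 of S. cerevisiae whose reads had been assigned against the S. paradoxus genome (the pair's S. cerevisiae). The libraries were chosen by the genomes they were counted with and not by a measured value, and all 4730 genes listed in each were members of the comparison. A further 4 S. cerevisiae homozygote libraries, counted together with the S. mikatae or the S. bayanus genome (the other S. cerevisiae), served as a second set against which each difference was looked at again. S. paradoxus was the wild-type MATa/MATalpha diploid CBS 432. S. cerevisiae was the diploid YHL068, a cross of the laboratory strains BY4741 and BY4716 that the labels call wild type, and which by the strain list is heterozygous for the deletions lys2Δ0, leu2Δ0, his3Δ1, met15Δ0 and ura3Δ0. Both species were grown as 2 biological replicates per pair, at 25 °C in YPD, a rich medium with glucose, to log phase at an optical density between 0.65 and 0.75. Each species was represented by 1 strain, so differences between species and differences between strains cannot be told apart. The labels do not say which of the 6 S. cerevisiae libraries belonged to which pair; this was taken from the deposited tables, and the pair's culture and the genome it was counted with cannot be told apart either.

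S. paradoxus is the closest known relative of S. cerevisiae, and hybrids of these yeasts grow but are largely sterile. In glucose medium S. cerevisiae ferments sugar even with oxygen at hand and keeps the genes of respiration low. Genes for building ribosomes follow the rate of growth and fall under stress, while genes for reserve carbohydrates, antioxidant enzymes and autophagy tend to do the opposite.

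A level is given below as a scaled score: the sum of GC-weighted reads that the authors assigned to a gene and its surroundings (50 bases on its upstream and 500 on its downstream side), divided by the upper quartile of its library and brought to the mean upper quartile of the 12 homozygote libraries. Each read marks a transcript end, so the score does not grow with gene length. A fold change is the difference of mean log2(scaled score + 1), S. paradoxus minus S. cerevisiae, tested with limma (two-sided, Benjamini-Hochberg adjusted over all genes tested, threshold 0.05). Summed scores were 4760197 and 5620160 in S. paradoxus, and 4985775 and 4906540 in the pair's S. cerevisiae. Across 4616 genes the correlation of log2 levels was 0.892 between the S. paradoxus libraries and 0.677 to 0.697 between them and the pair's S. cerevisiae. The pair's S. cerevisiae libraries correlated at 0.902 with each other and at 0.833 to 0.854 with the other 4, which among themselves reached 0.898 to 0.906. The S. cerevisiae libraries of the pair therefore stood apart from the other S. cerevisiae libraries, although all 6 were labelled as the same strain.

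Of 4616 genes tested, 893 differed between S. paradoxus and the pair's S. cerevisiae (19.3%), 378 higher (8.19%) and 515 lower (11.2%) in S. paradoxus. Against the other S. cerevisiae 1293 of 4610 genes passed, 566 higher (12.3%) and 727 lower (15.8%). A difference was said to hold where it passed both tests with the same sign; this was so for 569 genes, 12.4% of the 4589 tested in both, of which 237 were higher (5.16%) and 332 lower (7.23%) in S. paradoxus. In all 569, both S. paradoxus libraries lay outside the range of all 6 S. cerevisiae libraries. Passing both tests selects for this, so it is no separate support. It was so in 733 of the 893 genes called against the pair. In 67.2% of all genes tested, both S. paradoxus libraries lay outside the range of the 2 S. cerevisiae libraries of the pair. The 2 tests share the S. paradoxus libraries, so the second is no independent replicate of the first. Of the genes that held, the median log2 fold change was 2.37 in those higher and -2.48 in those lower, and 24 of the higher and 59 of the lower reached a size of 4. The smallest log2 fold change that passed was 1.13 in size, but far larger ones did not all pass, such as SPS4, a sporulation gene, at -3.13 (adjusted p = 0.0504), so a gene that did not pass may still differ.

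The direction split depended on the scaling. The median over all genes was -0.20 with upper-quartile scaling, -0.46 with scaling by library totals and -0.01 with median-of-ratios scaling. The calls against the pair then numbered 292 higher and 726 lower with totals, and 485 higher and 418 lower with median-of-ratios, and the genes that held numbered 192 higher and 381 lower, or 303 higher and 265 lower. Between the S. cerevisiae of the pair and the other S. cerevisiae, 315 genes were higher and 232 lower in the pair with upper-quartile scaling, 643 and 137 with totals, and 264 and 286 with median-of-ratios. Without any 1 of the 4 libraries, whichever was left out, limma passed 0 genes against the pair, with 1089 to 1916 genes at an unadjusted p under 0.05 (1803 with all 4). Such a fit leaves 1 species with 1 library and 1 residual degree of freedom, so the count of 0 says nothing about single calls. In 1 fit over all 12 homozygote libraries, added after seeing the data, leaving out S. paradoxus replicate 1 or 2 gave 1124 or 939 calls, and leaving out S. cerevisiae replicate 1 or 2 gave 777 or 746.

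**Figure D1:**
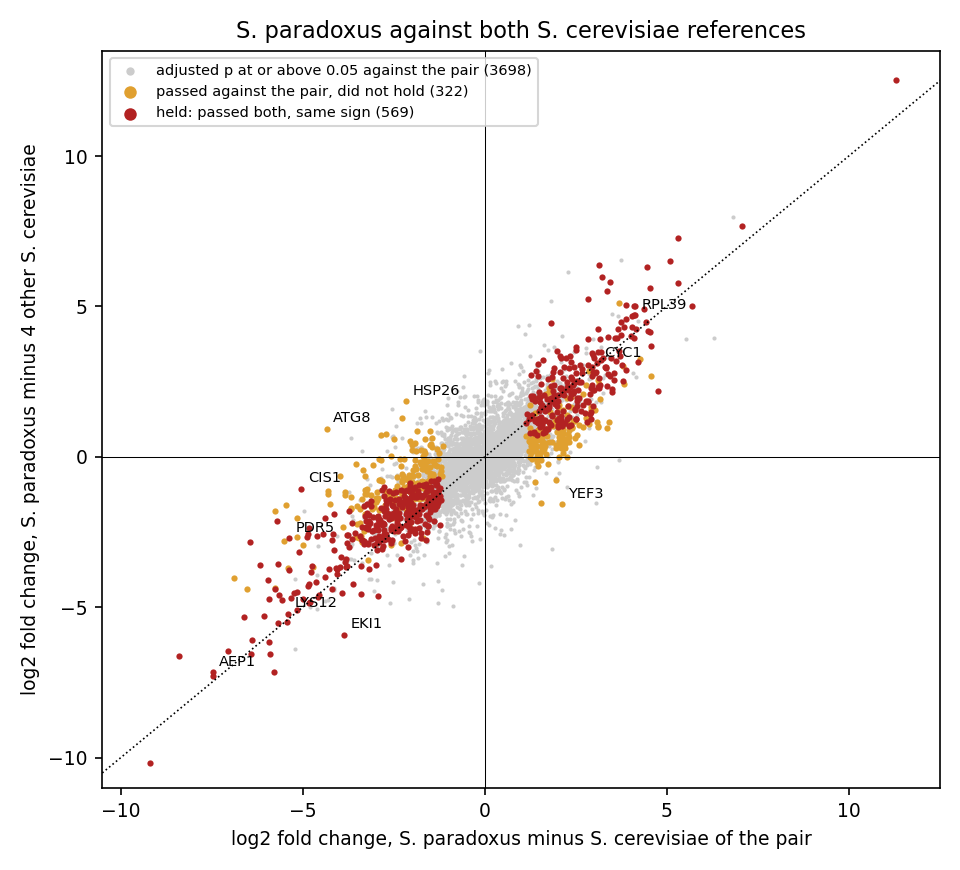
Each point is 1 of 4589 genes: the x axis is its log2 fold change in S. paradoxus against the pair's S. cerevisiae, and the y axis that against the 4 other S. cerevisiae libraries, with the dotted line at equal values. Of the 569 genes that passed both tests with the same sign (red), some lie far from the line, such as CIS1 and PDR5, and of the 322 that passed against the pair but did not hold (orange) ATG8 and HSP26 lie above 0 on the y axis and YEF3 lies below it.

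The strain markers were read first as a check of the labels. LYS2, needed for lysine synthesis, had scaled scores of 42.6 and 29.4 in S. paradoxus, against 166 and 216 in the pair's S. cerevisiae and 184, 185, 246 and 185 in the others, and was thus lower in S. paradoxus although 1 of the S. cerevisiae copies is deleted, a log2 fold change of -2.39 ± 0.39 (SE, adjusted p = 0.0305). LEU2 had 75.7 and 41.6 in S. paradoxus, against 71.7 and 49.1 in the pair's S. cerevisiae and 171, 188, 79.5 and 184 in the others, with no difference that passed (-0.08, adjusted p = 0.919). URA3 had 765 and 784 in S. paradoxus, against 311 and 398 in the pair's S. cerevisiae and 438, 572, 485 and 476 in the others, a log2 fold change of 1.14 (adjusted p = 0.0582). MET17, whose other name is MET15, had 615 and 370.0 in S. paradoxus, against 129 and 116 in the pair's S. cerevisiae and 438, 225, 499.5 and 355 in the others, and passed against the pair (1.95, adjusted p = 0.0374) but not against the others (0.39, adjusted p = 0.503). All 4 were above 0 in every library, as a diploid with 1 intact copy allows; HIS3 was not analysed here. Genes that mark haploid cells should be silent in a MATa/MATalpha diploid. The 14 found had summed scores of 625.5 and 631.3 in S. paradoxus, 1278.8 to 1360.7 in the pair's S. cerevisiae and 526.6 to 1002.9 in the others. Of the 13 tested 2 were higher and 2 lower in S. paradoxus, all of which held. Among all genes 8.19% were called higher and 11.2% lower, and 5.16% and 7.23% held. The 8 meiosis markers summed to 180.4 to 224.6 in S. paradoxus, 1093.2 to 1192.3 in the pair's S. cerevisiae and 804.2 to 2139.1 in the others; of 7 tested, IME1 and HOP1 were lower in S. paradoxus and neither held.

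Genes of the respiratory chain and the ATP synthase lay mostly on the higher side in S. paradoxus. Of 29 tested, 24 had a positive fold change against the pair, 10 were higher and 1 lower in S. paradoxus, and 8 and 1 of these held, beside 8.19% and 11.2% of all genes called and 5.16% and 7.23% that held. The median log2 fold change of the list was 1.29 against the pair and 1.75 against the others, with -0.20 and -0.09 over all genes tested, and the S. cerevisiae libraries of the pair differed from the others by a median of only 0.06. The counts of the list were 8 higher and 1 lower with scaling by totals and 11 higher and 1 lower with median-of-ratios scaling. Cytochrome c is the mobile carrier of electrons between complex III and cytochrome oxidase. Its major form CYC1 had 5103 and 7312 in S. paradoxus, against 663 and 765 in the pair's S. cerevisiae and 758, 642, 854 and 582 in the others. Both S. paradoxus libraries were far above all 6 S. cerevisiae libraries, with a log2 fold change of 3.10 ± 0.31 (SE, adjusted p = 0.0228) against the pair and 3.12 (adjusted p = 0.00169) against the others. In complex III, the core proteins COR1 and QCR2 were higher. QCR2 had 480.0 and 761 in S. paradoxus, against 52.6 and 119 in the pair's S. cerevisiae and 121, 80.4, 131 and 179 in the others, a log2 fold change of 2.91 ± 0.53 (SE, adjusted p = 0.0354). COR1 had 666 and 619 in S. paradoxus, against 272 and 258 in the pair's S. cerevisiae and 84.5, 87.2, 104 and 114 in the others, a log2 fold change of 1.28 ± 0.26 (SE, adjusted p = 0.0421), and here the pair's S. cerevisiae lay above the others as well. The iron-sulfur subunit RIP1 passed against the pair (2.88, adjusted p = 0.0268) but not against the others (2.87, adjusted p = 0.102), among which it ranged from 208 to 3274.

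Cytochrome oxidase, the complex that passes electrons to oxygen, had isoforms that differed in opposite directions. COX5A and COX5B encode the alternative forms Va and Vb of 1 subunit, the first used with oxygen and the second when oxygen is short. COX5A had 1348 and 1471 in S. paradoxus, against 583 and 344 in the pair's S. cerevisiae and 392, 465, 529 and 509 in the others, a log2 fold change of 1.65 ± 0.36 (SE, adjusted p = 0.0478). COX5B had 56.7 and 56.8 in S. paradoxus, against 1724 and 1530.1 in the pair's S. cerevisiae and 302, 326, 172 and 449 in the others, a log2 fold change of -4.81 ± 0.27 (SE, adjusted p = 0.0208). S. paradoxus thus had more COX5A and less COX5B than any S. cerevisiae homozygote library, and the pair's S. cerevisiae were also higher than the other S. cerevisiae in COX5B (2.45, adjusted p = 0.0184). COX9, a small subunit, had 598 and 797 in S. paradoxus, against 144 and 135 in the pair's S. cerevisiae and 110.2, 114, 169.7 and 182 in the others, a log2 fold change of 2.30 ± 0.30 (SE, adjusted p = 0.0242), without overlap. COX13 passed against the pair (2.37, adjusted p = 0.0445) and not against the others (1.98, adjusted p = 0.201). In the ATP synthase, the alpha subunit ATP1 had 3070.4 and 1794 in S. paradoxus, against 394 and 408 in the pair's S. cerevisiae and 462, 753, 431 and 1154 in the others, a log2 fold change of 2.55 ± 0.36 (SE, adjusted p = 0.0258). The small subunits ATP19 and TIM11, which join the enzyme into dimers, had log2 fold changes of 2.18 (adjusted p = 0.0239) and 1.60 (adjusted p = 0.0321). SDH3, a membrane subunit of succinate dehydrogenase that was counted in the list of the citrate cycle, was higher too (3138 and 2007 in S. paradoxus, 871 and 887 in the pair's S. cerevisiae and 559 to 801 in the others). Of the 22 genes of that list tested, however, 1 was called higher and 5 lower, and 1 and 3 held. Among all genes 8.19% were called higher and 11.2% lower, and 5.16% and 7.23% held. In the hybrid of the same species, the S. paradoxus allele of COX5A had 1475 and 959 and the S. cerevisiae allele 1453 and 1071, and for CYC1 the alleles had 13264 and 5172 and 7050.4 and 6321. For COX5B, the S. paradoxus allele had 17.2 and 18.4 and the S. cerevisiae allele 53.4 and 36.2. COX5B was also low in homozygotes of S. mikatae (17.4 and 4.8) and S. bayanus (4.3 and 3.2). Against their own S. cerevisiae libraries, the median of the respiratory list was 1.86 in S. mikatae and -0.48 in S. bayanus.

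**Figure D2:**
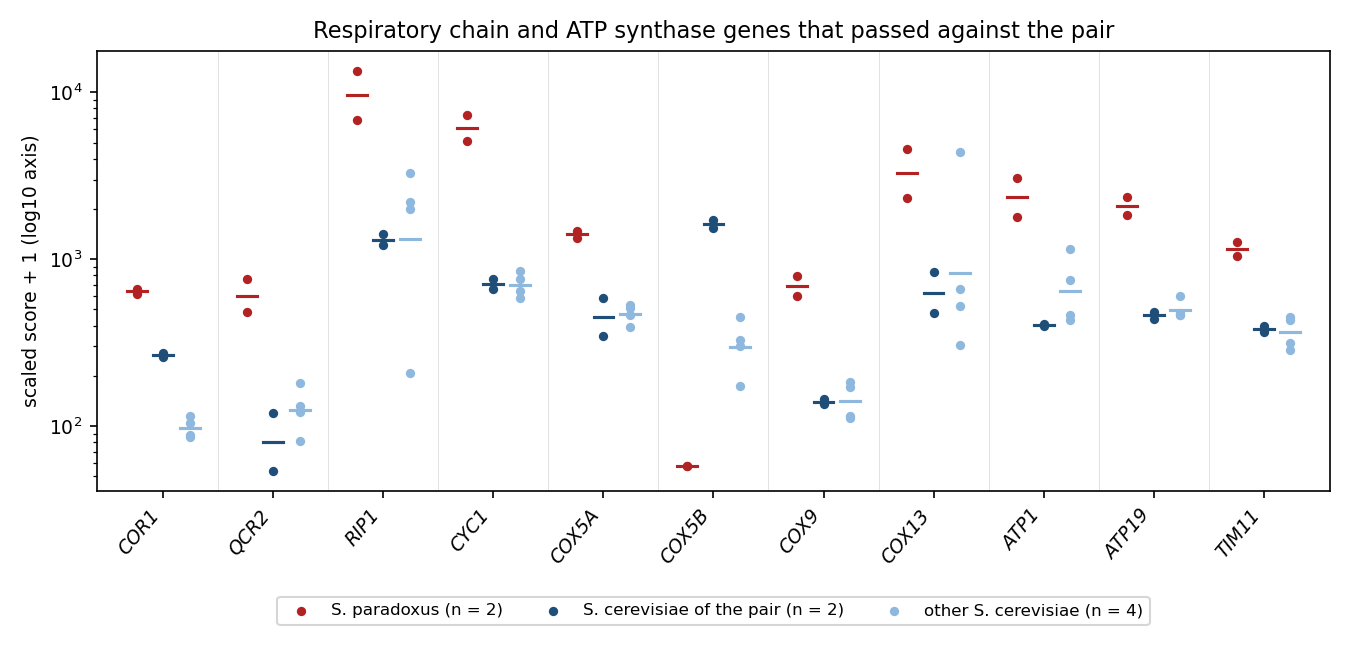
Scaled score plus 1 on a log10 axis for the 11 genes of the respiratory chain and ATP synthase that passed against the pair, with points for libraries and bars for the mean of the log2 values: S. paradoxus (2), the pair's S. cerevisiae (2) and other S. cerevisiae (4). COX5B is the only gene of the 11 with both S. paradoxus libraries below all S. cerevisiae libraries, and RIP1 and COX13 are the ones spread most widely among the other S. cerevisiae.

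Many genes of respiration are switched on by the Hap complex, which binds CCAAT. The 300 bases before the start codon are shown for both isoform genes and for COX9, because they carry this motif and yet differ in direction. They were read from the S. cerevisiae reference genome (RefSeq, R64) at COX5A (chrXIV:531425-531724, plus strand), COX9 (chrIV:334397-334696, minus strand) and COX5B (chrIX:154922-155221, plus strand). Capitals mark CCAAT or its reverse complement ATTGG.
COX5A: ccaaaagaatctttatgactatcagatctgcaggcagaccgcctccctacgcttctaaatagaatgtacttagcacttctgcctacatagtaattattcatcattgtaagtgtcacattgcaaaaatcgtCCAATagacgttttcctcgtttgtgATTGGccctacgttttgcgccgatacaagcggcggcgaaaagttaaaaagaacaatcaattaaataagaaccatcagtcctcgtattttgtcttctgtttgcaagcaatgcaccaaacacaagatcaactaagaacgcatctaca
COX9: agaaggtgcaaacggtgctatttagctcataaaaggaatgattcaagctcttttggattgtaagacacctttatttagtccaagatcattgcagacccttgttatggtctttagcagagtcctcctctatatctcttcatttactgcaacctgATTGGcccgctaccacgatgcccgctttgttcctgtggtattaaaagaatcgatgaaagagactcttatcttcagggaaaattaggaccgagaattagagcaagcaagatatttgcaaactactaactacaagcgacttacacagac
COX5B: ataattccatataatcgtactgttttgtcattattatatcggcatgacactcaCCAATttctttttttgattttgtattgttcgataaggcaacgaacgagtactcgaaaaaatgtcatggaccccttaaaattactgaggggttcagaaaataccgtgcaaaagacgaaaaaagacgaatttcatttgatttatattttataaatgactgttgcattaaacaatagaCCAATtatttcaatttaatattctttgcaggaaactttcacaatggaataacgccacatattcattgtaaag
The first base of a match lay 170 and 145 bases before the start codon in COX5A, 147 bases in COX9, and 247 and 72 bases in COX5B. A match on either strand was found in 25 of the 29 genes of the list (86.2%) and in 42.4% of the promoters of all 4722 genes with one; CYC1 had none in this window. The motif was added after the data were seen, and a match describes letters, not a bound site. These are promoters of S. cerevisiae, and the S. paradoxus sequences were not used here.

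In lysine synthesis, 5 of the genes tested were lower in S. paradoxus, while LYS4, LYS5, LYS14 and LYS21 did not pass. Of the 14 genes of the list of lysine and histidine synthesis tested, 0 were higher and 6 lower, and all 6 held (LYS20, LYS12, LYS2, LYS9, LYS1 and HIS7), beside 11.2% of all genes called lower and 7.23% that held lower. The median of the list was -1.02 against the pair and -1.25 against the others, and the S. cerevisiae sets differed by -0.07. With scaling by totals 7 and with median-of-ratios 5 members were lower. LYS20, a homocitrate synthase at the entry of the pathway, had 276 and 239 in S. paradoxus, against 1867 and 2076 in the pair's S. cerevisiae and 12151, 6755, 5918 and 3481 in the others, a log2 fold change of -2.93 ± 0.26 (SE, adjusted p = 0.0221). LYS12, the homoisocitrate dehydrogenase, had 10.6 and 50.7 in S. paradoxus, against 972 and 1091 in the pair's S. cerevisiae and 986, 998, 894 and 775 in the others, a log2 fold change of -5.39 ± 0.79 (SE, adjusted p = 0.0263). Both were below every S. cerevisiae library, and LYS20 also varied several-fold among the other S. cerevisiae. The last steps are run by the saccharopine dehydrogenases LYS9 and LYS1. LYS9 had 225 and 241 in S. paradoxus, against 806 and 1079 in the pair's S. cerevisiae and 1374, 1311, 1035 and 1240.2 in the others, a log2 fold change of -2.0 ± 0.29 (SE, adjusted p = 0.0263). LYS1 had 23.6 and 56.8 in S. paradoxus, against 227 and 306 in the pair's S. cerevisiae and 388, 223, 320.0 and 358 in the others, a log2 fold change of -2.81 ± 0.54 (SE, adjusted p = 0.039). The second homocitrate synthase LYS21 had 174 and 114 in S. paradoxus, 402 and 745 in the pair's S. cerevisiae and 836 to 1133 in the others and just missed the threshold (-1.95, adjusted p = 0.0521). LYS4, homoaconitase, had 497 and 400.4 in S. paradoxus, 520.3 and 566 in the pair's S. cerevisiae and 528 to 596 in the others (-0.28, adjusted p = 0.498), and LYS14, the activator of the pathway, had 1020.3 and 996 in S. paradoxus, 556 and 4992 in the pair's S. cerevisiae and 858 to 5397 in the others (-0.72, adjusted p = 0.664). HIS7, of histidine synthesis, had a log2 fold change of -1.32 ± 0.26 (SE, adjusted p = 0.0406).

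**Figure D3:**
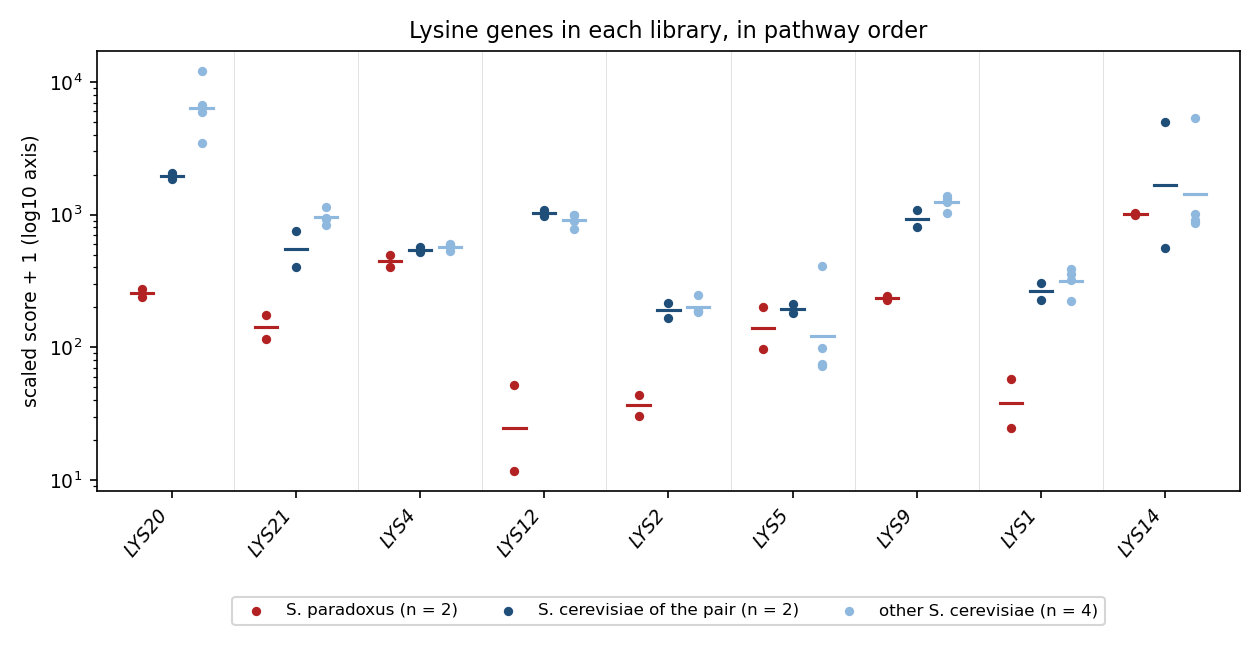
Scaled score plus 1 on a log10 axis for 9 lysine genes in pathway order with the activator LYS14 last, points for libraries and bars for means of log2 values, in S. paradoxus (2), the pair's S. cerevisiae (2) and other S. cerevisiae (4). Apart from LYS5 and LYS14, which overlap, both S. paradoxus libraries lie below all 6 S. cerevisiae libraries in these genes.

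Lys14 binds an element with the letters TCCNNNGGA, and Gcn4, the activator of amino acid synthesis in general, binds TGACTC. The promoters of 3 genes that held show how these lie, at LYS12 (chrIX:187633-187932, minus strand), LYS1 (chrIX:420737-421036, minus strand) and LYS9 (chrXIV:715389-715688, minus strand) of the same genome. Capitals mark either motif on either strand.
LYS12: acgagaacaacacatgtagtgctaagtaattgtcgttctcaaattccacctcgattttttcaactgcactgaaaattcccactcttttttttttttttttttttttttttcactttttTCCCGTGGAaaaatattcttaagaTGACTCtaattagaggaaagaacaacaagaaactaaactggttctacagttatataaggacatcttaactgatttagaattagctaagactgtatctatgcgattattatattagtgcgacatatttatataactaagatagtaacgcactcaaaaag
LYS1: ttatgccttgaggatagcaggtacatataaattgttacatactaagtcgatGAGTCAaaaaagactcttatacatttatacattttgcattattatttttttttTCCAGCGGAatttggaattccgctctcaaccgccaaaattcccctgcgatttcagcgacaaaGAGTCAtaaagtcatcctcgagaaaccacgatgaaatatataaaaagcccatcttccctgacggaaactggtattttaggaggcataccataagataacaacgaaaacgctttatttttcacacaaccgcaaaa
LYS9: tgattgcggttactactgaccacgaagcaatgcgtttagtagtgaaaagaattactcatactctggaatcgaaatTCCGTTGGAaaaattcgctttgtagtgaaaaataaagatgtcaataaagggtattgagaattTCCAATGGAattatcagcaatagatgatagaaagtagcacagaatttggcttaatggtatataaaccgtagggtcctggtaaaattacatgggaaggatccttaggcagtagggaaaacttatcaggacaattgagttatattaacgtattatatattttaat
The Lys14 letters began 182 bases before the start codon in LYS12, 196 in LYS1, and 225 and 163 in LYS9. The Gcn4 letters began 158 bases before it in LYS12, and 249 and 134 in LYS1. Of the 9 lysine genes, 4 held the Lys14 letters (44.4%), against 3.41% of all promoters, and 4 the Gcn4 letters, against 8.32%. The Lys14 motif was added after the data were seen. In the hybrid, the S. paradoxus allele of LYS12 had 81.1 and 68.6 and the S. cerevisiae allele 747 and 690.5.

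Of 21 genes of antioxidant defence and general stress tested, 0 were higher and 10 lower in S. paradoxus, 7 held, and 11 did not pass, beside 11.2% of all genes called lower and 7.23% that held. Against the other S. cerevisiae 3 members were higher and 8 lower, where 12.3% and 15.8% of all genes were. YHB1, the flavohemoglobin that removes nitric oxide, had 266 and 425 in S. paradoxus, against 4763 and 5384 in the pair's S. cerevisiae and 6333, 8238, 8925 and 7863 in the others, a log2 fold change of -3.91 ± 0.34 (SE, adjusted p = 0.0221). SOD1, the copper-zinc superoxide dismutase, had 14581 and 6754 in S. paradoxus, against 53386 and 47922 in the pair's S. cerevisiae and 22378, 22499.5, 33296 and 28052 in the others, a log2 fold change of -2.35 ± 0.49 (SE, adjusted p = 0.0438), and its copper chaperone CCS1 was lower with it (-2.13, adjusted p = 0.0314). The glutathione peroxidase GPX1 was near 0 in S. paradoxus, with 3.5 and 6.1 in S. paradoxus, against 338 and 355 in the pair's S. cerevisiae and 163, 168, 212 and 83 in the others. The other members that held were the peroxidases HYR1 and DOT5, the mitochondrial thioredoxin reductase TRR2 and the aldose reductase GRE3, with log2 fold changes between -1.98 and -1.23. Of the 3 that did not hold, GAD1 had 136 and 116 in S. paradoxus, 582 and 587 in the pair's S. cerevisiae and 109.7 to 153 in the others, and PRX1 had 268 and 279 in S. paradoxus, 762 and 772 in the pair's S. cerevisiae and 126 to 251 in the others, so that S. paradoxus was no lower than the others. The median of the list was -1.67 against the pair but -0.88 against the others, with the pair's S. cerevisiae 0.73 above the others. The letters AGGGG, a stress response element, were in 13 of the 21 promoters (61.9%) and in 22.3% of all.

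Phosphate genes differed in both directions. Of 17 tested 3 were higher and 5 lower in S. paradoxus, 2 and 5 of them held, and 9 did not pass. Among all genes 8.19% were called higher and 11.2% lower, and 5.16% and 7.23% held. VTC1, VTC2 and VTC3 belong to the complex that makes polyphosphate. VTC1 had 1077 and 707 in S. paradoxus, against 6210.2 and 7305 in the pair's S. cerevisiae and 5499, 7602, 6136 and 6103 in the others, a log2 fold change of -2.95 ± 0.34 (SE, adjusted p = 0.0233). VTC2 had 654 and 687 in S. paradoxus, against 2398 and 1597 in the pair's S. cerevisiae and 3378, 2231, 2323 and 6504 in the others, a log2 fold change of -1.54 ± 0.32 (SE, adjusted p = 0.0434). VTC3 was close to 0 in S. paradoxus, at 13 and 1. The high-affinity carrier PHO84 had 2090.3 and 2324 in S. paradoxus, against 5779 and 5841 in the pair's S. cerevisiae and 9770.2, 8601, 9249 and 11380.2 in the others, a log2 fold change of -1.40 ± 0.26 (SE, adjusted p = 0.0373), and PHO81, the inhibitor of the kinase that holds the pathway off, was lower (-1.63, adjusted p = 0.0354). PHO87, a low-affinity carrier, was higher, with 287 and 289.9 in S. paradoxus, against 46.9 and 64.5 in the pair's S. cerevisiae and 27.6, 76.5, 20.4 and 21.9 in the others, a log2 fold change of 2.37 ± 0.34 (SE, adjusted p = 0.0257). PHO4, the activator, was low in all libraries, with 62.7 and 32.4 in S. paradoxus, against 0 and 1.9 in the pair's S. cerevisiae and 7.1, 13.6, 7.8 and 9.5 in the others. The E-box CACGTG, to which Pho4 can bind, was in 6 of the 17 promoters (35.3%) and in 3.47% of all.

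Of 31 proteasome genes 0 were higher and 4 lower in S. paradoxus, and all 4 held. They were PUP1, of the 20S core, and RPN10, RPN11 and RPT1, of the 19S cap. PUP1 had 365 and 399 in S. paradoxus, against 1820.1 and 1465 in the pair's S. cerevisiae and 1886, 1136, 2136 and 2429 in the others, a log2 fold change of -2.09 ± 0.27 (SE, adjusted p = 0.0243). RPN11, which removes ubiquitin from substrates, had 273 and 283 in S. paradoxus, against 1031 and 705 in the pair's S. cerevisiae and 843, 1486, 927 and 1081 in the others, a log2 fold change of -1.61 ± 0.31 (SE, adjusted p = 0.0394). RPN10, a ubiquitin receptor, and RPT1, an ATPase, had log2 fold changes of -1.59 (adjusted p = 0.0373) and -1.54 (adjusted p = 0.0299). The other 27 did not pass, and the median of the list was -0.53 against the pair and -0.49 against the others. The share of lower members, 4 of 31, was close to the 11.2% called lower among all genes, of which 7.23% held lower. Proteasome genes share the Rpn4 letters GGTGGCAAA, which were found in 25 of 31 promoters (80.6%) but in 1.31% of all, and in neither PUP1 nor RPN10. RPN11 is shown as an example, at RPN11 (chrVI:153093-153392, plus strand), with these letters in capitals 124 bases before the start codon.
RPN11: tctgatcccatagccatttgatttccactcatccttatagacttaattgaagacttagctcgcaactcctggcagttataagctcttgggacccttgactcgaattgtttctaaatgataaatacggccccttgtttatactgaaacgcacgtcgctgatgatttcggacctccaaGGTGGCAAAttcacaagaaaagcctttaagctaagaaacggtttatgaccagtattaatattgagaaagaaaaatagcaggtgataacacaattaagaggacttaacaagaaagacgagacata

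In ergosterol synthesis 6 of 26 genes were higher and 3 lower, and 3 of each held. Of all genes, 8.19% were called higher and 11.2% lower, and 5.16% and 7.23% held. The share of the list called lower was thus close to that of all genes. HMG1, the rate-limiting reductase, had 5342 and 3111 in S. paradoxus, against 835 and 773 in the pair's S. cerevisiae and 998, 1071, 1215 and 918 in the others, a log2 fold change of 2.34 ± 0.37 (SE, adjusted p = 0.0289). ERG28, a scaffold of the C-4 demethylation enzymes, and the isomerase ERG2 were also higher (1.86, adjusted p = 0.0249 and 1.29, adjusted p = 0.049). The C-5 desaturase ERG3 had 1232 and 1339 in S. paradoxus, against 5421 and 6168 in the pair's S. cerevisiae and 5991, 6187, 5669.7 and 6739 in the others, a log2 fold change of -2.17 ± 0.26 (SE, adjusted p = 0.0236). ERG4 and ERG24, both reductases, were lower too (-2.02, adjusted p = 0.0249 and -1.44, adjusted p = 0.0433). The genes of the pathway thus did not move as a block, and the median of the list was 0.21. Most carbon genes did not pass, and the counts are to be read beside the same shares of all genes. Of 20 genes of glycolysis and fermentation 2 were higher and 2 lower, and 1 and 1 held. Of 22 of the citrate and glyoxylate cycles 1 was higher and 5 lower, and 1 and 3 held. Of 6 of the galactose pathway 1 was higher and 1 lower, and 1 and 1 held. The isocitrate lyase ICL1 had 7.1 and 7.1 in S. paradoxus, against 159 and 114 in the pair's S. cerevisiae and 114, 106, 125 and 87.8 in the others, a log2 fold change of -4.06 ± 0.47 (SE, adjusted p = 0.0233). The hexokinase HXK2 was lower at 1312 and 1486 in S. paradoxus, 4053 and 4529.6 in the pair's S. cerevisiae and 3723 to 4627 in the others (-1.62, adjusted p = 0.0303), while PGK1, a phosphoglycerate kinase, was higher (1.57, adjusted p = 0.0344). LPD1, a dehydrogenase subunit shared by several complexes, and the cytosolic malate dehydrogenase MDH2 had log2 fold changes of -3.66 and -3.20. GAL10, of galactose breakdown, stood at 320.4 and 530.2 in S. paradoxus, 18.2 and 6.7 in the pair's S. cerevisiae and 1.9 to 6.2 in the others. GAL3, the sensor of galactose, stood at 0 in both libraries of S. paradoxus, with 39.2 and 42.3 in the pair's S. cerevisiae and 4.8 to 35.9 in the others.

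Large differences also occurred in single genes of unrelated roles. The following were the 10 genes higher and the 10 lower with the largest log2 fold changes among those that held and reached a scaled score of at least 50 in all 8 libraries. SEC14, a lipid transfer protein of the Golgi, had 8681 and 3695 in S. paradoxus, against 234 and 237 in the pair's S. cerevisiae and 616, 286, 400.5 and 526 in the others, a log2 fold change of 4.58 ± 0.49 (SE, adjusted p = 0.0232). RVS161, which bends membranes in endocytosis, had 17044 and 33906 in S. paradoxus, against 1349 and 1350.1 in the pair's S. cerevisiae and 1536, 1259, 1298 and 970.2 in the others, a log2 fold change of 4.15 ± 0.43 (SE, adjusted p = 0.0232). RPP2A, of the stalk of the large ribosomal subunit, had 2379 and 3122 in S. paradoxus, against 127 and 116 in the pair's S. cerevisiae and 110.2, 149, 146 and 206 in the others, a log2 fold change of 4.48 ± 0.29 (SE, adjusted p = 0.022). As in all genes that held, the species did not overlap in these 3, while most other ribosomal and endocytic proteins did not pass. RPL39, another protein of the large subunit, had 8542 and 8393 in S. paradoxus, against 587 and 394 in the pair's S. cerevisiae and 416, 429, 249 and 247 in the others, a log2 fold change of 4.14 ± 0.32 (SE, adjusted p = 0.0221). ILV5, of valine and isoleucine synthesis, had 1516 and 2219 in S. paradoxus, against 90.9 and 106 in the pair's S. cerevisiae and 145, 301, 256 and 161 in the others, a log2 fold change of 4.21 ± 0.33 (SE, adjusted p = 0.0221). The remaining 5 were ECM1 (a factor for export of the large subunit), PRS4 (phosphoribosyl pyrophosphate synthesis), MIC19 (mitochondrial inner membrane), NKP1 (kinetochore) and YBT1 (a vacuolar transporter), with log2 fold changes between 3.72 and 4.02. Replicates disagreed most in YBT1, with 734 and 3265 in S. paradoxus against 99.5 and 137 in the pair's S. cerevisiae, and in MIC19, with 2303 and 716 against 146 and 54.9.

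On the lower side, PDR5, the main drug efflux pump of the plasma membrane, had 1237 and 1211 in S. paradoxus, against 53493 and 48027 in the pair's S. cerevisiae and 9109, 8033, 9913 and 5553 in the others, a log2 fold change of -5.37 ± 0.28 (SE, adjusted p = 0.0208). CIS1 had 56.7 and 68.9 in S. paradoxus, against 2805 and 1546 in the pair's S. cerevisiae and 108, 125, 146 and 148 in the others, a log2 fold change of -5.03 ± 0.40 (SE, adjusted p = 0.0221). In both genes the pair's S. cerevisiae stood far above the other S. cerevisiae (2.67, adjusted p = 0.0109 and 3.98, adjusted p = 0.00884), so that against the others the log2 fold change was -2.70 in PDR5 and -1.05 in CIS1. PDR3, which activates PDR5, had 68.6 and 147 in S. paradoxus, against 1476 and 1411 in the pair's S. cerevisiae and 188, 234, 289 and 211 in the others, and it did not hold. LSM6, of a ring that binds RNA ends, had 1110.2 and 642 in S. paradoxus, against 24721 and 23723 in the pair's S. cerevisiae and 3692, 10583, 3763 and 4215 in the others, a log2 fold change of -4.84 ± 0.38 (SE, adjusted p = 0.0221). COT1, a vacuolar zinc carrier, had 117 and 69.9 in S. paradoxus, against 1191 and 3261 in the pair's S. cerevisiae and 301, 280.0, 1166 and 852 in the others, a log2 fold change of -4.43 ± 0.61 (SE, adjusted p = 0.025). RDL1, a sulfur transferase of mitochondria, had 417 and 342 in S. paradoxus, against 5846 and 8032 in the pair's S. cerevisiae and 1987, 2504, 2502 and 2012 in the others, a log2 fold change of -4.18 ± 0.31 (SE, adjusted p = 0.0221). For these 3 as well the other S. cerevisiae lay between S. paradoxus and the pair's S. cerevisiae. EKI1, an ethanolamine kinase, had 54.4 and 98.3 in S. paradoxus, against 1132 and 1013 in the pair's S. cerevisiae and 956, 5959.6, 9045 and 7608 in the others, with log2 fold changes of -3.85 (adjusted p = 0.0229) against the pair and -5.91 (adjusted p = 0.00748) against the others. DIC1, the dicarboxylate carrier of mitochondria, had 54.4 and 124 in S. paradoxus, against 1459.5 and 923 in the pair's S. cerevisiae and 800.2, 875, 897 and 902 in the others, a log2 fold change of -3.81 ± 0.53 (SE, adjusted p = 0.025), and YLR126C was lower as well (-3.64, adjusted p = 0.0221). COX5B and YHB1 complete the 10.

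Some genes were near 0 in the libraries of 1 species. By the rule that a gene held, averaged at least 100 over the libraries of the higher species and stayed at or under 10 in every library of the lower, 23 were near 0 in S. paradoxus and 3 in S. cerevisiae (RSC30, SPS2 and DFG16). GAB1, of the enzyme that attaches lipid anchors to proteins, had 3.5 and 3 in S. paradoxus, against 740.3 and 772 in the pair's S. cerevisiae and 624, 705, 615 and 697 in the others. In the hybrid, however, the S. paradoxus allele of GAB1 had 0 and 377, and its S. cerevisiae allele was listed at 0 in both libraries. AEP1, needed to express a mitochondrial ATP synthase gene, had 1.2 and 3 in S. paradoxus, against 523 and 521 in the pair's S. cerevisiae and 534, 427, 475 and 296 in the others. QDR2, a multidrug transporter, had 3.5 and 4.1 in S. paradoxus, against 571 and 711 in the pair's S. cerevisiae and 380.5, 369, 449 and 490.4 in the others. In these genes all 6 S. cerevisiae libraries were of the same order while the S. paradoxus homozygotes stood near 0. In the hybrid, the S. paradoxus allele of QDR2 had 81.1 and 61.9, and that of AEP1 had 4.9 and 11.7. ICL2, a mitochondrial methylisocitrate lyase, had 2.4 and 1 in S. paradoxus, against 248 and 259.8 in the pair's S. cerevisiae and 86.2, 169, 89.2 and 84.9 in the others, and ICS2 was listed at 0 and 0 in S. paradoxus, against 422 and 264 in the pair's S. cerevisiae and 168, 252, 128 and 15.3 in the others. SPS2, a sporulation gene, had 354 and 390.3 in S. paradoxus, against 2.9 and 1 in the pair's S. cerevisiae and 0, 1.9, 1 and 1 in the others, and DFG16, of the pathway that senses external pH, had 264 and 65.9 in S. paradoxus, against 5.7 and 8.7 in the pair's S. cerevisiae and 8.9, 4.8, 4.8 and 4.8 in the others. Of the 23 genes near 0 in S. paradoxus, the S. paradoxus allele of the hybrid was at or under 10 in both hybrid libraries in 14, and the S. cerevisiae allele in 3. Low values were also seen outside S. paradoxus: 11 of the 23 were at or under 10 in both homozygote libraries of S. mikatae, and 9 in both of S. bayanus. TAF13 and GAB1 encode proteins that S. cerevisiae cannot live without, and TAF13 had 8.3 and 9.1 in S. paradoxus against 394 and 446 in the pair's S. cerevisiae. From the homozygote values alone, a transcript that is missing and reads that could not be assigned to the gene cannot be told apart. RPA135, the second largest subunit of RNA polymerase I, had 23.6 and 1 in S. paradoxus against 339.5 and 449 in the pair's S. cerevisiae, whereas RPA34 and RPA49, of the same enzyme, were higher in S. paradoxus (2.32, adjusted p = 0.0233 and 2.05, adjusted p = 0.0239) and did not hold.

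**Figure D4:**
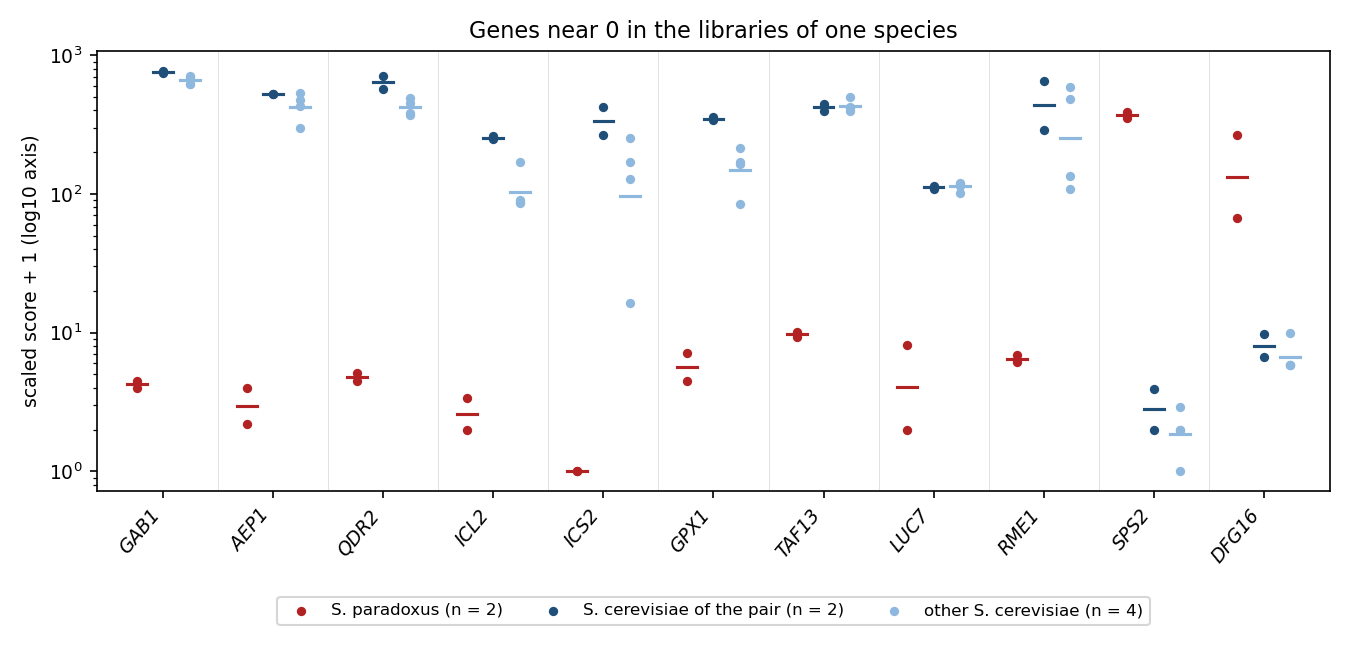
Scaled score plus 1 on a log10 axis for 9 of the 23 genes near 0 in S. paradoxus and, at the right, 2 of the 3 near 0 in S. cerevisiae, with points for libraries and bars for means of log2 values in S. paradoxus (2), the pair's S. cerevisiae (2) and other S. cerevisiae (4). No S. paradoxus library of the 9 genes at the left exceeds 10 in scaled score, and ICS2 shows 1 S. cerevisiae library well below the others.

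Genes of ribosome assembly were often called higher, but most of these calls did not hold. Of 47 genes of the small subunit processome 23 were higher and 0 lower in S. paradoxus, and 8 held. Of 61 assembly factors of the large subunit 22 were higher and 0 lower, and 7 held, where 8.19% of all genes were called higher and 5.16% held. The medians were 1.49 and 1.13 against the pair, but 0.39 and 0.21 against the others. The difference between the S. cerevisiae sets, pair minus others, had medians of -0.94 and -1.0, with 12 and 25 members called lower and 0 called higher, where 5.04% of all genes tested were lower and 6.85% higher (547 genes in all). The S. cerevisiae alleles in the hybrid with S. paradoxus lay a median of 1.33 and 1.34 above the pair's S. cerevisiae and 0.47 and 0.36 above the others. Over all genes tested, the medians of these 2 differences were -0.18 and -0.09. PWP2, of the processome, had 461 and 939 in S. paradoxus, against 82.3 and 69.3 in the pair's S. cerevisiae and 217, 273, 454 and 419 in the others. LSG1, a GTPase for export of the large subunit, had 512 and 937 in S. paradoxus, against 137 and 165 in the pair's S. cerevisiae and 475, 465, 472 and 612 in the others. In both genes the pair's S. cerevisiae were lowest, and the others lay closer to S. paradoxus. UTP25, of the processome, and NSA2, of the large subunit, are examples that held. UTP25 had 2705 and 1543 in S. paradoxus, against 152 and 232 in the pair's S. cerevisiae and 240.1, 342, 340.4 and 341 in the others, a log2 fold change of 3.44 ± 0.42 (SE, adjusted p = 0.0238). NSA2 had 2093 and 2443 in S. paradoxus, against 273 and 314 in the pair's S. cerevisiae and 206, 428, 393 and 415 in the others, a log2 fold change of 2.95 ± 0.27 (SE, adjusted p = 0.0221). NOP1, the methylase of rRNA, and SNU13, its partner in the same particle, held as well (2.92, adjusted p = 0.0227 and 2.47, adjusted p = 0.0241).

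The promoters of UTP25 and NSA2 carry the PAC element GATGAG, common to genes of ribosome assembly, and are shown with this motif in capitals on either strand. They lie at NSA2 (chrV:414180-414479, minus strand) and UTP25 (chrIX:193196-193495, minus strand).
NSA2: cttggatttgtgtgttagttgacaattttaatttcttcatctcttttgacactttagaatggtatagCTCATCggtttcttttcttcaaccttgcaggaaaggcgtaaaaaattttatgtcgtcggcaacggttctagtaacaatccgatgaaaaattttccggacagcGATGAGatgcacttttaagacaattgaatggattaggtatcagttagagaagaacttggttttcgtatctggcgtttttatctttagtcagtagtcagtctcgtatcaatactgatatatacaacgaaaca
UTP25: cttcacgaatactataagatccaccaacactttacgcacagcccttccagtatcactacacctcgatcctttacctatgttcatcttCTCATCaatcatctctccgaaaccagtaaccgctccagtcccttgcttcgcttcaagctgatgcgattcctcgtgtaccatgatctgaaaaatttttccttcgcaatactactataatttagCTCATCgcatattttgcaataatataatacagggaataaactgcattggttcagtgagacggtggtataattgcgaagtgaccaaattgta
Matches began 233 and 131 bases before the start codon in NSA2, and 213 and 91 bases in UTP25. The letters were in 41 of 47 processome promoters (87.2%), in 54 of 61 of the large subunit factors (88.5%) and in 19.3% of all, so genes that held and genes that did not shared them.

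Ribosomal proteins and translation factors showed the same shift. Of 60 proteins of the large subunit 11 were higher and 0 lower against the pair, and 3 held. Of 46 of the small subunit 8 were higher and 1 lower, and 4 and 1 held. Among all genes 8.19% were called higher and 11.2% lower, and 5.16% and 7.23% held. The share of the large subunit that held higher was thus close to that of all genes. Against the other S. cerevisiae, 7 were higher and 14 lower in the large subunit. In the small subunit 7 were higher and 8 lower, beside 12.3% and 15.8% of all genes. The fold change against the others was positive in 35 of the 60 and in 21 of the 46. Their medians were 0.74 and 0.53 against the pair, and 0.16 and -0.22 against the others. RPS20 had 29164 and 57198 in S. paradoxus, against 4081 and 5501 in the pair's S. cerevisiae and 2416, 2505, 1742 and 1979 in the others, a log2 fold change of 3.11 ± 0.46 (SE, adjusted p = 0.027). RPS7B had 58036 and 16035 in S. paradoxus, 1669 and 3731 in the pair's S. cerevisiae and 2398 to 3889.8 in the others and RPS6B, which was lower, 1822 and 3318 in S. paradoxus, 16219 and 24881 in the pair's S. cerevisiae and 10519.8 to 15086 in the others; both have near-identical copies elsewhere in the genome, so that their counts under unique mapping are uncertain. Of 35 translation factors 8 were higher and 2 lower, and 4 and 2 held. SUI1, initiation factor eIF1, had 16584 and 27043 in S. paradoxus, against 2413 and 1847 in the pair's S. cerevisiae and 2498, 2395, 3058 and 3061 in the others, a log2 fold change of 3.33 ± 0.38 (SE, adjusted p = 0.0233). CDC33, the cap-binding factor, was lower at 28.4 and 50.7 in S. paradoxus, 617 and 275 in the pair's S. cerevisiae and 152 to 2674 in the others. YEF3, the fungal elongation factor, was called in opposite directions: it had 2521 and 3616 in S. paradoxus, against 736 and 648 in the pair's S. cerevisiae and 9388, 8744, 7899 and 9765 in the others, with 2.13 (adjusted p = 0.0263) against the pair and -1.56 (adjusted p = 0.0075) against the others.

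Autophagy and reserve carbohydrates showed the mirror image. Of 32 autophagy genes 1 was higher and 10 lower in S. paradoxus, and 1 and 5 held, and of 16 genes of trehalose and glycogen 0 were higher and 6 lower, and 1 held, beside 8.19% of all genes called higher and 11.2% lower, and 5.16% and 7.23% that held. Against the other S. cerevisiae 3 autophagy genes were higher and 5 lower, and 0 and 2 of trehalose and glycogen, beside 12.3% and 15.8% of all genes. The share of autophagy genes lower there was thus close to that of all genes. Their medians were -0.87 and -0.99 against the pair, 0.09 and -0.15 against the others, and the pair's S. cerevisiae lay 1.02 and 0.74 above the other S. cerevisiae. ATG8, the protein that coats autophagosomes, had 397 and 103 in S. paradoxus, against 3694 and 4548 in the pair's S. cerevisiae and 66.7, 57.2, 59.2 and 539 in the others. ATG17, a scaffold of the initiation complex, had 20.1 and 23.3 in S. paradoxus, against 1854 and 2067 in the pair's S. cerevisiae and 233, 178, 242 and 67.7 in the others, a log2 fold change of -6.43 ± 0.29 (SE, adjusted p = 0.0208). ATG40, a receptor for breakdown of the endoplasmic reticulum, had 30.7 and 28.4 in S. paradoxus, against 929 and 877 in the pair's S. cerevisiae and 198, 189.9, 152 and 235 in the others, a log2 fold change of -4.89 ± 0.29 (SE, adjusted p = 0.0208). ATG17 and ATG40 held, while in ATG8 S. paradoxus overlapped the other S. cerevisiae. PGM2, a phosphoglucomutase, had 247 and 163 in S. paradoxus, 1322 and 977 in the pair's S. cerevisiae and 62.1 to 279 in the others, and only NTH2, a trehalase, held in its list (-3.79, adjusted p = 0.0227). TDH1, a form of glyceraldehyde phosphate dehydrogenase, had 484 and 978 in S. paradoxus, against 5338 and 4614 in the pair's S. cerevisiae and 291, 661, 391 and 394 in the others. HSP26, a small heat shock protein, had 114 and 95.3 in S. paradoxus, against 493 and 443 in the pair's S. cerevisiae and 45.3, 22.3, 39.8 and 15.3 in the others, and was called lower against the pair (-2.16, adjusted p = 0.0249) and higher against the others (1.85, adjusted p = 0.0397). YEF3 and HSP26 were the only 2 of the 893 genes called in opposite directions. Among the 70 mitochondrial ribosomal proteins the median was -0.37 against the pair and 0.51 against the others, with 2 higher and 6 lower against the pair and 2 and 2 that held. The split of these calls turned with the scaling, to 1 higher and 10 lower with totals and 7 higher and 3 lower with median-of-ratios. Against the other S. cerevisiae 14 were higher and 2 lower, beside 12.3% and 15.8% of all genes.

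Of the 324 genes called against the pair that did not hold, 284 had the same sign against the others, 38 the opposite sign and 2 were not tested there, and 126 differed between the S. cerevisiae sets. Of the 569 that held, 75 did. Whether the culture, the library or the genome used in counting set the pair's S. cerevisiae apart was not tested.

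**Figure D5:**
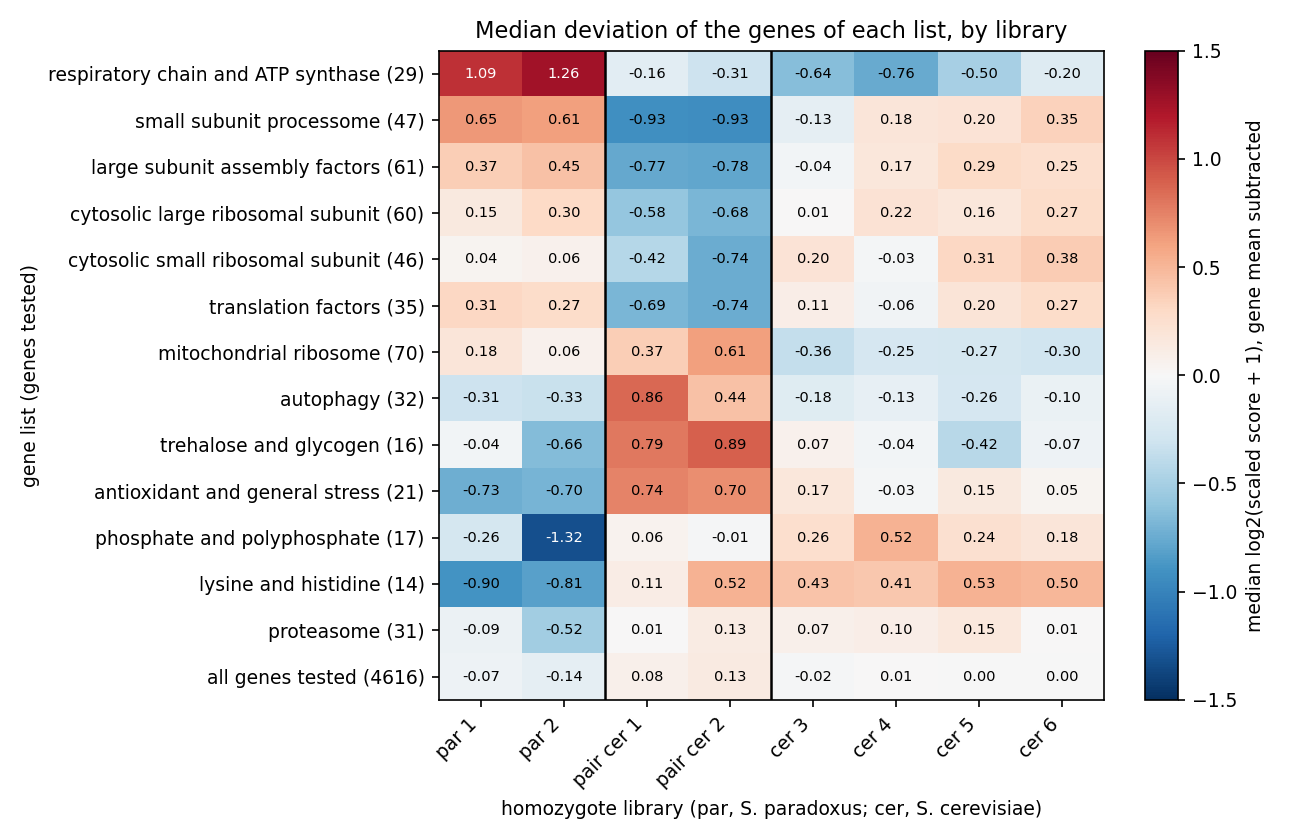
Columns are the 8 homozygote libraries, S. paradoxus first, then the pair's S. cerevisiae, then the 4 others, and rows are gene lists with the number tested; each cell gives the median over the list of log2(scaled score + 1) after subtracting each gene's mean over the 8 libraries. In the respiratory list S. paradoxus is at 1.09 and 1.26 and all S. cerevisiae libraries are below 0, whereas in the ribosome assembly lists the pair's S. cerevisiae are lowest, between -0.93 and -0.77, and S. paradoxus, between 0.37 and 0.65, lies above the other S. cerevisiae, which reach 0.35 in the processome list and 0.29 in that of the large subunit.

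The remaining lists gave few or mixed calls, to be read beside the 8.19% of all genes called higher and 11.2% called lower. Counts that held are to be read beside the 5.16% and 7.23% of all genes that held higher and lower. In endocytosis 3 of 43 genes were higher and 9 lower, and 2 and 6 held, with PAN1, a scaffold of the coat, at 50.8 and 45.6 in S. paradoxus, against 509.8 and 705 in the pair's S. cerevisiae and 804, 580.4, 811 and 1948 in the others, a log2 fold change of -3.61 ± 0.33 (SE, adjusted p = 0.0221). In iron uptake 1 of 16 was higher and 4 lower, and 1 and 2 held: the reductase FRE4 was higher (4.11, adjusted p = 0.0263), and the low-affinity carrier FET4 (-4.40, adjusted p = 0.0236) and the vacuolar reductase FRE6 (-3.14, adjusted p = 0.0249) were lower. The copper carrier CTR3 had 1038 and 343 in S. paradoxus, against 37.3 and 42.3 in the pair's S. cerevisiae and 13.3, 18.4, 15.5 and 22.9 in the others, a log2 fold change of 3.87 ± 0.62 (SE, adjusted p = 0.0291). In DNA replication 3 of 54 were higher and 5 lower, and 3 and 3 held, and subunits of the same clamp loader went both ways, RFC4 at 2.99 (adjusted p = 0.0232) and RFC3 at -1.95 (adjusted p = 0.0263). SLD5, of the replicative helicase, was at 17.7 and 33.5 in S. paradoxus, 149 and 150.1 in the pair's S. cerevisiae and 172 to 200.3 in the others. In the cell wall list 3 of 21 were higher and 4 lower, and 3 and 2 held: GAS1, CRH1 and UTR2, which remodel wall polymers, were higher (1.78, adjusted p = 0.0279, 2.29, adjusted p = 0.0474 and 2.27, adjusted p = 0.0321), and DSE1, a gene of daughter cells, was lower (-3.26, adjusted p = 0.0311). VMA16, of the vacuolar proton pump, was higher (2.24, adjusted p = 0.025), SWE1, the kinase that delays mitosis, was higher (2.38, adjusted p = 0.0232), and HSP82, the heat-induced form of Hsp90, was lower (-2.09, adjusted p = 0.0468). In sulfur metabolism 2 of 30 were higher and 2 lower, and only STR3 and MET16, both lower, held, STR3 at 10.6 and 4.1 in S. paradoxus, 686 and 442 in the pair's S. cerevisiae and 55.1 to 160.0 in the others. In arginine synthesis 2 of 12 were higher, among them ARG2, and 2 lower, ARG7 and CPA1, and 2 and 2 held. BAT1, a transaminase of branched-chain amino acids, TRP1 of tryptophan synthesis and URA4 of pyrimidine synthesis had log2 fold changes of 1.66 (adjusted p = 0.0403), -1.80 (adjusted p = 0.0406) and -1.39 (adjusted p = 0.049). The phosphatidylserine synthase CHO1 was lower (-2.67, adjusted p = 0.0263), as was MRPL37 of the mitochondrial ribosome (-2.20, adjusted p = 0.0444), while MRPL27 was higher (2.08, adjusted p = 0.0287).

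Among mating and meiosis genes, GPA1, the alpha subunit of the pheromone G protein, had 148 and 152 in S. paradoxus, against 20.1 and 17.3 in the pair's S. cerevisiae and 15.1, 15.5, 10.7 and 10.5 in the others, a log2 fold change of 2.94 ± 0.38 (SE, adjusted p = 0.0241), and STE4, its beta subunit, had 2.4 and 2 in S. paradoxus, against 73.6 and 78.9 in the pair's S. cerevisiae and 18.7, 16.5, 17.5 and 22.9 in the others, a log2 fold change of -4.60 ± 0.58 (SE, adjusted p = 0.0239). The subunits of 1 complex thus differed in opposite directions, at low scores. MFA2, a pheromone gene, had 136 and 146 in S. paradoxus, against a mean of 50.4 in the pair's S. cerevisiae and 8.9 to 39.8 in the others (1.47, adjusted p = 0.0492). RME1, the repressor of meiosis, had 5.9 and 5.1 in S. paradoxus, against 648 and 289.7 in the pair's S. cerevisiae and 592, 484, 107 and 134 in the others, and SPO21, needed to form spore membranes, had 2.4 and 0 in S. paradoxus, against 262 and 90.5 in the pair's S. cerevisiae and 77.4, 398, 85.3 and 88.7 in the others. IME1, the inducer of meiosis, had 1.2 and 2 in S. paradoxus, against 249.6 and 224 in the pair's S. cerevisiae and 342, 39.7, 63 and 8.6 in the others and did not hold, the other S. cerevisiae being spread widely (-4.40, adjusted p = 0.0527). The other haploid markers found (STE2, STE3, STE5, STE18, FUS3, FAR1, MFA1, AGA2, AXL1 and NEJ1) did not pass or were below the minimum score.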

How the data were processed

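Poly-adenylated transcript ends were sequenced from 12 homozygote and 6 hybrid libraries. Per the study's methods, reads with a unique place in the joined genomes of a species pair were kept, those that may stem from internal priming were dropped, and each read got a weight for GC content (full-quantile method) before summing by gene; the submitters' processing notes name CASAVA 1.7 and Bowtie 0.12.7. The deposited values are therefore a score, not plain counts, and carry no scaling between libraries; intervals from counting error were not computed. Scores were divided by the upper quartile of each library, and in the hybrids by that of each allele taken separately. R 4.3.3 and its package limma 3.58.1 (trend option) were used to test log2(scaled score + 1) in genes with a mean of at least 10 over the libraries compared, two-sided, Benjamini-Hochberg adjusted p under 0.05; a fold change on this scale understates that of low genes. The pipeline was tested on simulated data. Python 3.11.15, numpy 2.4.6, pandas 2.3.3 and Matplotlib 3.10.9 prepared tables and plots.

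The libraries compared, the 38 gene lists and the alternatives were chosen with earlier results of these data known. Named genes were the 10 per direction with the largest fold change that held at 50 or more in all 8 libraries, up to 5 per direction near 0 in 1 species (mean of at least 100 against at most 10 in every library), the 2 largest that held per list, and the strain and cell type markers. Further members of the lists, and PDR3, were named after their values were seen. Gene symbols and promoters came from RefSeq R64, matched by locus tag for 4722 of 4730 genes. The authors' genome assemblies and annotation differ from it, so it gave only names and the 300 bases before each start codon. The replicate differences of the species had a correlation of 0.018 across genes, and the replicate numbers mark no shared source, so samples were not paired. Of the values, those of the hybrids were not tested. They were read as levels and, for ribosome assembly, as medians of log2 differences from the homozygotes.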

Additional observations from a re-analysis of the deposited data

Results flagged for a closer look

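In 3 of 85 named genes, the highest or lowest of the 6 S. cerevisiae homozygote libraries lay far from the others by Dixon's test, where chance would flag about 1 in 20 groups. DIC1, the mitochondrial dicarboxylate carrier, had a scaled score of 1459.5 in S. cerevisiae replicate 1, a library of the pair, against 800.2 to 922.9 in the other 5. ICS2 had 15.3 in replicate 6, against 128.0 to 421.8. PAN1, of the endocytic coat, had 1948.1 in replicate 6, against 509.8 to 810.8. In each of these genes all 6 S. cerevisiae libraries remained above both S. paradoxus libraries.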

How the results depend on the processing

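Most counts stayed within 1.5 times of those reported. The exceptions among genes differing from the pair (893) were 1 fit over all 12 homozygote libraries (1355), and the S. cerevisiae libraries counted with the S. mikatae (395) or the S. bayanus genome (432) as the reference. Among genes that held (569), the exception was the fit over 12 libraries (888). With the replicate number as a block the counts were 352 and 257; since the numbers pair no samples, this is not a weaker effect. Leaving out 1 library gave 0 calls against the pair and 0 to 504 genes that held. Within the S. cerevisiae libraries (547) leaving out 1 gave 5 to 428. In the fit over all 12 libraries, leaving out 1 of the 4 gave 746 to 1124 calls. The lone library was then assumed to vary like the rest. With the 4 other S. cerevisiae libraries as the reference, YEF3 and HSP26 were called in the opposite direction. Of the genes named by the rule, those that passed against the pair kept their sign under the alternatives run, while DMC1, LEU2, MFA1, NDT80, STE2, STE3, STE5 and STE18, which did not pass, changed it under at least 1. With 2 libraries per species many large differences did not pass, so a gene that did not pass is not shown to be alike.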
